A study of Homo sapiens with 12 samples.

Results

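Cadherins, claudins and epithelial junction genes were followed by single-cell RNA sequencing (scRNA-seq) in cetuximab-treated and untreated cells of head and neck squamous carcinoma (HNSCC). The 10 members were taken by name from the 3 deposited count tables, 1 per cell line: CDH1, CDH2, CDH3, EPCAM, CLDN1, CLDN4, CLDN7, OCLN, TJP1 and F11R. They are 10 of the 33514 gene symbols in the tables, each was present in all 3 tables, and all 10 passed the filter on low counts. SCC1, SCC6 and SCC25 are established HNSCC cell lines grown in culture, so that no stroma, vessels or immune cells are part of the model. Each line received cetuximab, an antibody against the epidermal growth factor receptor (EGFR), daily at 100 nM, or phosphate-buffered saline (PBS, untreated), over 5 days from the day after seeding. With 2 replicates per group there were 12 samples in 6 groups, and no genetic alteration was made in any of them.

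Cadherins are calcium-dependent adhesion proteins that join neighbouring cells at adherens junctions. CDH1 (E-cadherin) is the cadherin of epithelia, CDH3 (P-cadherin) that of basal layers of stratified epithelia, and CDH2 (N-cadherin) that of neural and mesenchymal cells. A fall of CDH1 with a rise of CDH2 is called the cadherin switch and is used as a mark of epithelial-mesenchymal transition (EMT), in which cells loosen their contacts. Claudins and occludin span the membrane at tight junctions, F11R (junctional adhesion molecule A) sits beside them, and TJP1 (ZO-1) links them to actin inside the cell. EPCAM is an adhesion molecule of epithelial cells that also binds claudins.

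The tables held 23914 cells, 961 to 2854 per sample, with 57057402 to 112170073 unique molecular identifiers (UMIs, one per captured RNA molecule) per sample. Median UMIs per cell ranged from 24078.5 in replicate 1 of cetuximab-treated SCC6 to 54864 in replicate 1 of cetuximab-treated SCC1, and replicate 2 of cetuximab-treated SCC6 had 50156. Between replicates 3 to 10 barcodes were shared, and up to 13 between groups. Of the squamous markers, KRT5 and KRT14 were near 0 in SCC6, at most 4.47 and 2.52 CPM (UMIs scaled to a common library size), while untreated SCC1 and SCC25 had at least 331.9 and 1155. All 6 squamous markers together came to 799 to 1096 CPM in untreated SCC6 and to at least 5606 in the other untreated lines. Of the leukocyte markers, PTPRC was at most 0.0691 CPM, while CD68, a lysosomal protein of macrophages, was at 119.4 to 205.0 CPM in SCC25 and the list of 3 summed to 119 to 205 there. The endothelial gene PECAM1 was at most 0.214 CPM. In these sums, a smaller number of expressing cells and less RNA per cell cannot be told apart. Shares of positive cells are given further down, but they also rise with the level per cell and do not separate these cases.

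Positions follow the RefSeq annotation of GRCh38.p14, the release family named in the submitters' processing notes, and all 10 genes are protein coding. CDH3 (chr16:68645310-68733771) and CDH1 (chr16:68737292-68835537) are neighbours, 3520 bases apart. CDH2 lies at chr18:27932879-28177130. The claudins are on separate chromosomes, with CLDN1 at chr3:190305707-190322446, CLDN4 at chr7:73830996-73832690 and CLDN7 at chr17:7259903-7263213. OCLN is at chr5:69492547-69558104, TJP1 at chr15:29699367-29969049, F11R at chr1:160995211-161021152 and EPCAM at chr2:47369311-47387020. The protocol counts molecules by their 3' end over the whole gene, so isoforms were not separated.

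The untreated lines differed most in CDH2, CLDN4, CLDN7 and OCLN. Levels are CPM after trimmed mean of M-values (TMM) scaling, and differences are log2 fold changes from the quasi-likelihood test of edgeR with Benjamini-Hochberg adjusted p-values over 17897 genes. Of the 10 members, 4 differed between untreated SCC6 and SCC1 at an adjusted p under 0.05, beside 40.2% of all genes tested. Between SCC25 and SCC1 there were 4, beside 40.8%, and between SCC25 and SCC6 there were 5, beside 40.9%. The share of members that differed was therefore near that of all genes.

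CDH2 was at 4.32 and 2.82 CPM in the PBS replicates 1 and 2 of SCC1, at 10.1 and 14.3 in SCC6 and at 68.3 and 30.2 in SCC25. The 3 lines did not overlap, in the order SCC1, SCC6, SCC25, and each step passed the test with all samples. The log2 difference was 1.77 ± 0.52 (SE) from SCC1 to SCC6 (edgeR, adjusted p = 0.0204) and 2.02 ± 0.52 from SCC6 to SCC25 (adjusted p = 0.0107). When 1 sample was left out, the first call was lost without replicate 1 (adjusted p = 0.0502) or 2 (0.130) of SCC1 or replicate 2 of SCC6 (0.0942), and the second without replicate 1 of SCC25 (0.0830) or of SCC6 (0.0840), by edgeR. CDH1 was at 22.6 and 19.4 CPM in SCC1, 43.6 and 26.2 in SCC6, and SCC25 had 33.6 and 30.1. Only its step from SCC1 to SCC6 passed, with a log2 difference of 0.73 ± 0.24 (edgeR, adjusted p = 0.0351), and the difference between SCC25 and SCC1 was 0.60 (adjusted p = 0.0717). The call was lost without replicate 1 (edgeR, adjusted p = 0.0888) or 2 (0.190) of SCC1 or replicate 1 of SCC6 (0.307). CDH3 had its highest level in SCC1, 65.6 and 76.6 CPM, with 44.0 and 48.4 in SCC6 and 47.5 and 49.0 in SCC25. It was lower than in SCC1 by a log2 difference of -0.62 in SCC6 (adjusted p = 0.0265) and of -0.56 in SCC25 (adjusted p = 0.0407), both by edgeR. Both calls of CDH3 were lost whichever of the 4 samples was left out, with adjusted p-values up to 0.174 and 0.230.

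Among the tight junction genes, CLDN4, a claudin that seals the space between cells, set SCC6 apart. Its PBS levels were 199.6 and 579.7 CPM in SCC6, 64.4 and 78.5 in SCC1 and 20.7 and 57.1 in SCC25. SCC6 was higher than SCC1 by 2.45 ± 0.62 on the log2 scale (edgeR, adjusted p = 0.00996), and SCC25 differed from SCC6 by -3.32 ± 0.64 (adjusted p = 0.0024). CLDN7, which is expressed along the sides of epithelial cells, was lowest in SCC25, at 73.6 and 153.9 CPM, beside 361.3 and 470.7 in SCC1 and 250.1 and 290.7 in SCC6. OCLN showed the same order, with SCC1 at 12.7 and 14.1, SCC6 at 10.7 and 7.02 and SCC25 at 2.12 and 4.05. SCC25 differed from SCC1 by -1.87 for CLDN7 (edgeR, adjusted p = 0.00266) and by -2.11 for OCLN (adjusted p = 0.000657), and from SCC6 by -1.25 (adjusted p = 0.0190) and -1.52 (adjusted p = 0.00399). F11R was higher in SCC25 than in SCC6 by 0.58 ± 0.20 (edgeR, adjusted p = 0.0423), while EPCAM, CLDN1 and TJP1 differed between no pair of untreated lines by this test. Without 1 sample, by edgeR, the call of CLDN4 between SCC6 and SCC1 was lost without replicate 1 of SCC1 (adjusted p = 0.0704) or replicate 2 of SCC6 (0.0924), and that of CLDN7 between SCC25 and SCC6 without replicate 1 of SCC25 (0.111) or replicate 2 of SCC6 (0.0773). The F11R call was lost without replicate 2 of SCC25 (0.335) or either SCC6 sample (0.107 and 0.139). The calls of OCLN, that of CLDN7 between SCC25 and SCC1 and that of CLDN4 between SCC25 and SCC6 held in all 4 omissions. With the replicate number as a block, the number of members that differed was 5 between SCC6 and SCC1 (57.5% of all genes), 9 between SCC25 and SCC1 (58.8%) and 8 between SCC25 and SCC6 (58.1%). The 3 comparisons share samples and are not independent of each other.

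**Figure D1:**
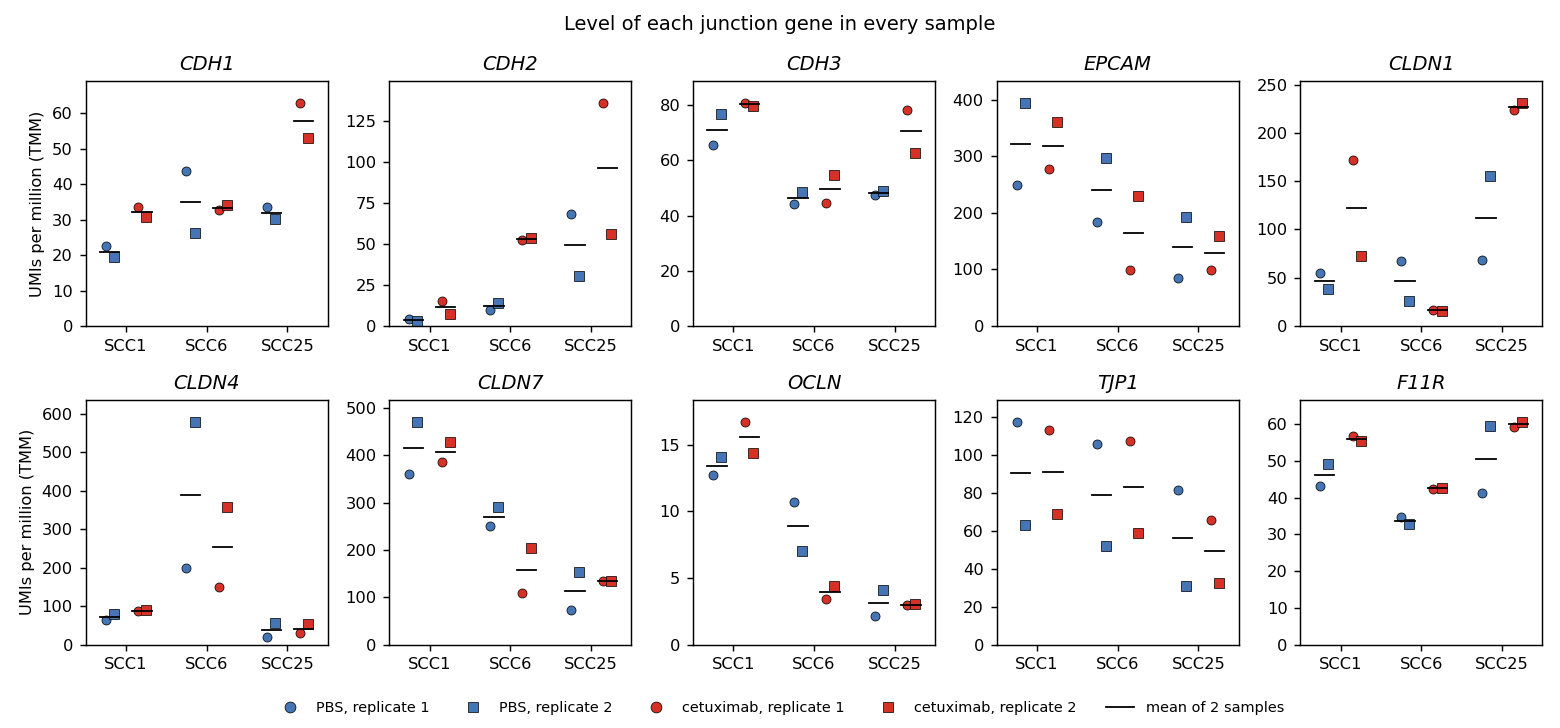
TMM-scaled CPM (vertical axes, linear, starting at 0) of the 10 junction genes in all 12 samples, by line, with PBS in blue and cetuximab in red, circles for replicate 1, squares for replicate 2 and a bar for the mean of 2 samples. CDH2 steps up from SCC1 to SCC25 and is higher under cetuximab in all 6 replicate pairs, and TJP1 is higher in replicate 1 than in replicate 2 in all 6 groups.

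Cetuximab was then compared with PBS, within each line and across lines. CDH2 rose across the 3 lines, by 1.59 ± 0.31 on the log2 scale (SE, edgeR, adjusted p = 0.0188), and it was the only member that passed, 1 of 10 beside 3.67% of all genes tested (2.53% as higher). The test was not passed by CDH1, whose log2 difference across lines was 0.47 ± 0.17 (adjusted p = 0.139). Within single lines no member passed this test, beside 0.0168% of genes in SCC1, 3.81% in SCC6 and 0% in SCC25. At an unadjusted edgeR p under 0.05 there were 3 members in SCC1 (CDH1, CDH2 and CLDN1), 3 in SCC6 (CDH2, CLDN1 and OCLN) and 2 in SCC25 (CDH1 and CDH3). Of the 17897 genes tested, 1570 in SCC1, 3561 in SCC6 and 1041 in SCC25 reached this level. DESeq2 called 0, 3 and 0 members in these lines, beside 274, 1671 and 101 of the 17897 genes.

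The calls depended on whether the replicate number entered the fit. Samples with the same number moved together, and with the number as a block 1 member was called in SCC1, 5 in SCC6, 1 in SCC25 and 1 across lines. Over all genes the block called 4.45% in SCC1, 20.1% in SCC6, 0.978% in SCC25 and 11.6% across lines. In SCC6, CDH2 was called as higher and CLDN1, CLDN7, EPCAM and OCLN as lower, beside 9.94% of genes called as higher and 10.1% as lower. The member called in SCC1 and SCC25 was CDH2, as higher, beside 2.46% and 0.771%. The members' median log2 difference without the block was 0.25 in SCC1 (0.001 over all genes), -0.31 in SCC6 (0 over all genes) and 0.24 in SCC25 (-0.007 over all genes).

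**Figure D2:**
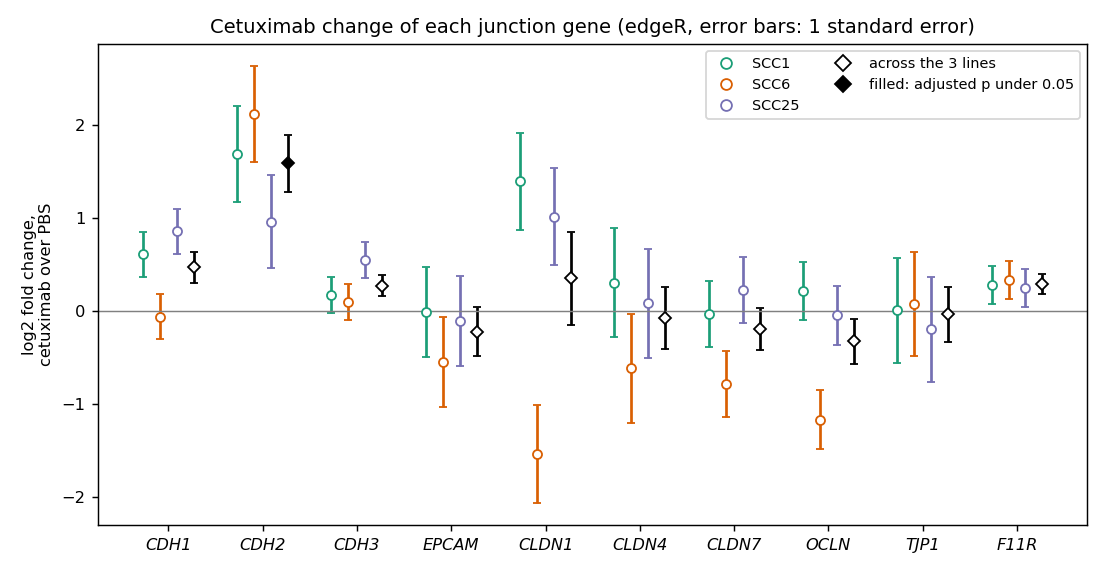
Log2 fold change of cetuximab over PBS (vertical axis) for each junction gene in SCC1, SCC6 and SCC25 (circles) and across the 3 lines (diamonds), from edgeR without the block, with bars of 1 standard error and filled marks for an adjusted p under 0.05. The 1 filled mark is CDH2 across the lines at 1.59. CLDN1 lies at 1.40 and 1.02 in SCC1 and SCC25 and at -1.54 in SCC6.

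For CDH2, the SCC1 samples had 4.32 and 2.82 CPM with PBS and 15.5 and 7.55 with cetuximab. SCC6 had 10.1 and 14.3 with PBS and 52.3 and 53.9 with cetuximab, and SCC25 had 68.3 and 30.2 against 135.9 and 56.4. In SCC1 and SCC6 the treated samples lay above both untreated ones. In SCC25 the groups overlapped, since replicate 1 was higher than replicate 2 in both, and each treated sample was above the untreated sample of its own number. The log2 differences were 1.69 ± 0.52 in SCC1 (edgeR, adjusted p = 0.345), 2.12 ± 0.52 in SCC6 (adjusted p = 0.0521) and 0.96 ± 0.50 in SCC25 (adjusted p = 0.908). With the replicate block they were 1.64 ± 0.17 (adjusted p = 0.00458), 2.14 ± 0.17 (adjusted p = 0.000475) and 0.95 ± 0.16 (adjusted p = 0.0410), and 1.57 ± 0.19 across lines (adjusted p = 0.0068).

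The call of CDH2 across lines without the block stood close to the threshold. It was lost without replicate 1 of cetuximab-treated SCC1 (adjusted p = 0.0523), replicate 2 of untreated SCC1 (0.0558), replicate 1 of untreated SCC6 (0.0509) or replicate 2 of untreated SCC6 (0.055), all by edgeR, with log2 differences of 1.43 to 1.85 over all 12 omissions. Without replicate 1 of untreated SCC6 CDH1 was called instead, as higher across lines by 0.63 (edgeR, adjusted p = 0.0301), and it was called in none of the other 11 omissions. The difference between lines in the response of CDH2 did not pass (interaction, edgeR, adjusted p = 0.967).

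Other markers moved along with CDH2 in SCC6. Of the 6 fibroblast markers, COL1A1 and PDGFRB were called as higher with cetuximab in that line, and the list summed to 1.13 and 3.12 CPM in the PBS samples and 21.0 to 24.6 in the treated ones, with PDGFRA at 0 in both PBS samples. Most of this sum was COL1A1, at 1.03 and 2.75 CPM untreated and 22.6 and 18.8 treated, while PDGFRB reached 1.36. In SCC1 the list went from 7.23–7.52 to 15.3–16.6, and in SCC25 from 17.8–39.3 to 38.1–75.5, with 0 of 6 called in either. With the replicate block 3 of the 6 were called as higher in SCC1, 3 in SCC6 and 1 in SCC25. Of all genes, 2.46%, 9.94% and 0.771% were called as higher with the block in these lines. Squamous KRT17 was called as higher in SCC6, from 921.9 and 492.1 to 1963 and 2438 CPM, and KRT6A as lower, from 23.9 and 17.6 to 2.86 and 3.99. Leukocyte CD68 was called as lower in SCC6, from 30.5 and 13.2 to 3.30 and 4.14, with PTPRC and CD3E at 0 in both PBS samples. The part of these markers in the CDH2 result was not tested. VIM (vimentin, an intermediate filament of mesenchymal cells) was at 33.6 and 92.8 CPM in untreated and 840.6 and 804.9 in treated SCC6. Replicate 1 of treated SCC6 had a lower depth per cell than replicate 2, with closely similar CDH2 levels.

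CDH1 was at 22.6 and 19.4 CPM in untreated and 33.4 and 30.8 in treated SCC1, at 43.6 and 26.2 and at 32.7 and 34.1 in SCC6, and at 33.6 and 30.1 and at 62.8 and 52.9 in SCC25. The treated samples lay above the untreated ones in SCC1 and SCC25, and inside their range in SCC6. Log2 differences were 0.61 ± 0.24 (edgeR, adjusted p = 0.498), -0.06 ± 0.24 (adjusted p = 0.926) and 0.86 ± 0.24 (adjusted p = 0.589) in SCC1, SCC6 and SCC25, and none passed with the block either. In SCC6, the sign of this small difference turned when replicate 1 of the untreated samples was left out. Its neighbour CDH3 had 65.6 and 76.6 CPM with PBS and 80.6 and 79.8 with cetuximab in SCC1, 44.0 and 48.4 and then 44.6 and 54.5 in SCC6, and 47.5 and 49.0 and then 78.2 and 62.7 in SCC25. It did not overlap in SCC1 and SCC25, with a log2 difference of 0.55 ± 0.19 in SCC25 (edgeR, adjusted p = 0.739) and 0.27 across lines (adjusted p = 0.200).

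The cadherin switch was examined as the ratio of CDH2 to CDH1 UMIs in each sample. Since molecules of different genes are captured unequally, the ratio was read between samples only. It was 0.191 and 0.146 in untreated and 0.465 and 0.245 in treated SCC1, 0.231 and 0.545 in untreated and 1.60 and 1.58 in treated SCC6, and 2.03 and 1.00 in untreated and 2.16 and 1.07 in treated SCC25. Each treated sample had a higher ratio than the untreated sample of its number, in 6 of 6 pairs. Over the 3 lines the log2 ratio was higher with cetuximab by 1.09, with 1.02 for SCC1, 2.16 for SCC6 and 0.09 for SCC25 (exact two-sided permutation test within lines, p = 0.0370, and 0.0370 adjusted over 2 tests). The smallest p that these arrangements allow is 0.00926, and an exact sign-flip test over the 6 pairs gave p = 0.0312, the smallest it allows. When the log2 ratio was replaced by the difference of mean log2(CPM + 1) over cells, the value was 0.88 with p = 0.25 in the exact permutation test, and the difference was -0.13 in SCC1 and -0.04 in SCC25. The p of the ratio was also above 0.05 when replicate 2 of untreated SCC1, replicate 1 of treated SCC1, replicate 1 of untreated SCC6, either treated SCC6 sample, replicate 2 of untreated SCC25 or replicate 1 of treated SCC25 was left out, with at most 0.102. The edgeR test called CDH1 as lower in none of the lines.

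**Figure D3:**
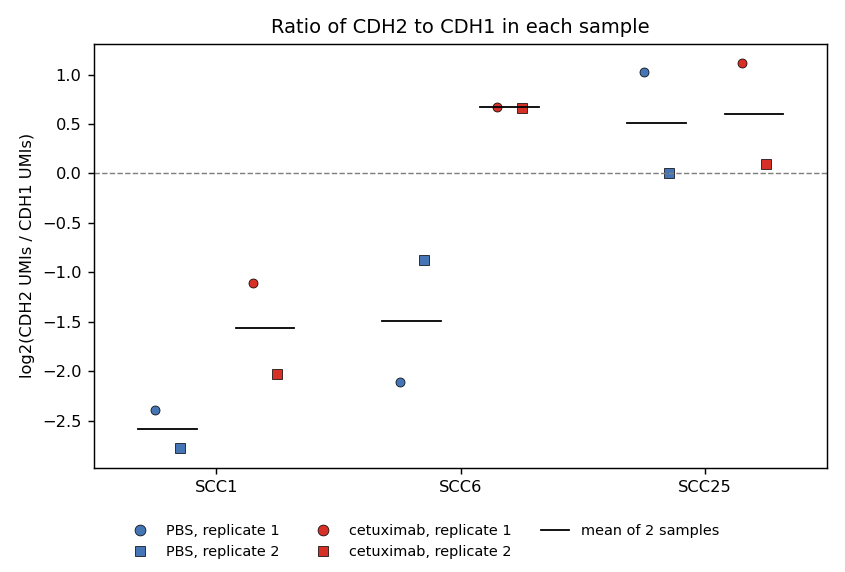
Log2 ratio of CDH2 to CDH1 UMIs (vertical axis) in each of the 12 samples, by line, with PBS in blue, cetuximab in red, circles for replicate 1, squares for replicate 2 and a bar for the mean of 2 samples. The treated SCC6 samples lie at 0.68 and 0.66, above the untreated ones at -2.11 and -0.88, while the SCC25 groups overlap.

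Cells in which both cadherins were detected became more frequent. A cell was called positive with 1 or more UMIs, and because depth differed between samples, shares are those expected if each cell were reduced to 15000 UMIs, without the 851 cells that had fewer (14 to 262 per sample). In SCC1, 2.22% and 0.951% of untreated and 9.71% and 4.09% of treated cells were positive for both CDH1 and CDH2. The shares were 4.70% and 5.03% against 19.5% and 19.6% in SCC6, and 21.3% and 9.23% against 44.5% and 22.9% in SCC25. All treated samples were above both untreated ones of their line. The mean difference over lines was 12.8 percentage points, with 5.31 for SCC1, 14.7 for SCC6 and 18.4 for SCC25 (exact two-sided permutation test within lines, p = 0.00926, the smallest possible, and 0.0185 adjusted over 2 tests). The difference was 25.6 points without thinning and 8.59 points at 10000 UMIs, with the same exact permutation p, and p was 0.0556 when replicate 2 of untreated SCC25 was left out.

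Within samples, both transcripts met about as often as their separate shares predict. The observed share of double-positive cells divided by the product of the single shares was 0.94 to 1.18 over the 12 samples. The higher double-positive share therefore follows the single shares and is not a result separate from the levels. In SCC6, cells with CDH1 only went from 35.1% and 24.1% to 16.9% and 17.1%, and cells with CDH2 only from 6.62% and 11.4% to 29.5% and 31.1%. All CDH1-positive cells of SCC6 together made up 39.8% and 29.1% untreated and 36.5% and 36.7% treated. The CDH1-only cells of SCC1 were at 29.8% and 25.8% in untreated and 34.7% and 36.0% in treated samples. SCC25 had 16.0% and 24.7% CDH1-only cells untreated and 11.9% and 28.7% treated, and 35.5% and 18.9% CDH2-only cells untreated and 32.6% and 21.4% treated, so that both classes overlapped between treatments in that line. These classes were not tested.

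**Figure D4:**
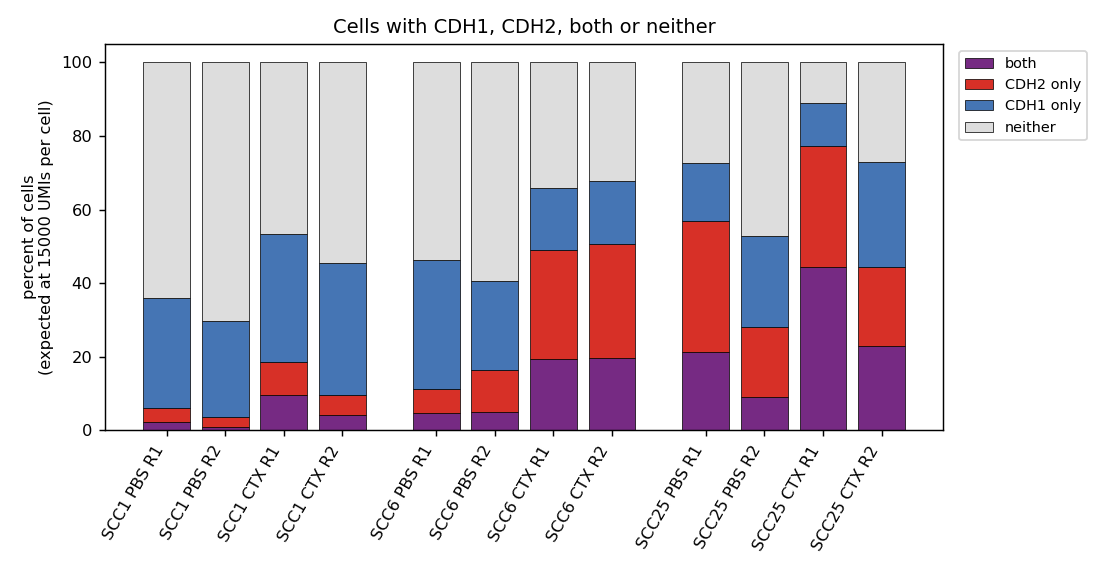
Percent of cells (vertical axis, stacked bars, expected at 15000 UMIs per cell) with both CDH1 and CDH2, CDH2 only, CDH1 only or neither, in each of the 12 samples (R1 and R2 are replicates, CTX is cetuximab). The class with both cadherins is higher with cetuximab in every line, up to 44.5% in SCC25.

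The single shares followed the levels. CDH2 was positive in 6.08% and 3.79% of untreated and 18.6% and 9.65% of treated SCC1 cells, 11.3% and 16.5% against 49.1% and 50.7% in SCC6, and 56.8% and 28.2% against 77.2% and 44.3% in SCC25. Without thinning the SCC6 shares were 22.6% (95% exact binomial interval 21.0 to 24.2) and 34.3% (32.4 to 36.2) in untreated and 63.6% (61.8 to 65.4) and 83.8% (81.9 to 85.5) in treated samples, intervals that cover counting error only. The treated SCC6 replicates were apart without thinning and close at equal depth. As background, PTPRC, CD3E, ALB and HBB, which these lines should lack, reached at most 0.173% of cells at 15000 UMIs and 0.345% unthinned. Positive cells also held more CDH2 molecules in SCC6, 1.17 and 1.18 UMIs per positive cell untreated and 1.61 and 1.64 treated, at 15000 UMIs. A higher level in every cell raises both the share and this count. More expressing cells and more RNA per cell were therefore not separated. At the same depth, CDH1 was positive in 26.8% to 56.4% of cells over the 12 samples, CDH3 in 39.3% to 68.8%, EPCAM in 60.3% to 97.1%, CLDN7 in 56.5% to 98.8%, CLDN4 in 23.4% to 98.6%, F11R in 35.2% to 61.8%, TJP1 in 33.4% to 84.5%, CLDN1 in 17.3% to 83.8% and OCLN in 3.23% to 24.9%.

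CLDN1, a barrier claudin of stratified epithelia, had the widest contrast between lines. It was at 54.5 and 38.0 CPM in untreated and 171.6 and 72.1 in treated SCC1, at 67.5 and 25.9 against 16.7 and 15.5 in SCC6, and at 68.8 and 155.7 against 223.5 and 230.6 in SCC25. The treated samples lay above the untreated ones in SCC1 and SCC25 and below them in SCC6. Log2 differences were 1.40 ± 0.53 in SCC1 (edgeR, adjusted p = 0.473), -1.54 ± 0.53 in SCC6 (adjusted p = 0.138) and 1.02 ± 0.52 in SCC25 (adjusted p = 0.901). Their size depended on single samples. With 1 sample left out they ranged from 0.63 to 1.89 in SCC1, from -2.07 to -0.70 in SCC6 and from 0.54 to 1.72 in SCC25. In the fit with the replicate block CLDN1 fell in SCC6, with -1.38 ± 0.35 (adjusted p = 0.0294). The interaction of line and cetuximab did not pass (edgeR, adjusted p = 0.432, and 0.0597 with the block). It called 0 members and 0% of genes without the block, where 1318 genes and the members CLDN1 and OCLN had an unadjusted p under 0.05. DESeq2 called 276 genes, CLDN1 being the 1 member among them (adjusted p = 0.0176), and edgeR with the block called 1.29% of genes and 0 members.

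OCLN, CLDN7 and EPCAM were lower with cetuximab in SCC6 when replicates were paired. OCLN was at 10.7 and 7.02 CPM in untreated and 3.44 and 4.43 in treated SCC6, without overlap, and the log2 difference was -1.17 ± 0.32 (edgeR, adjusted p = 0.0729; with the block -1.15, adjusted p = 0.0236). In SCC1 it was at 12.7 and 14.1 against 16.7 and 14.4, a log2 difference of 0.22 (adjusted p = 0.971), and in SCC25 at 2.12 and 4.05 against 2.98 and 3.02. CLDN7 in SCC6 was at 250.1 and 290.7 against 109.2 and 204.8, again without overlap, with a log2 difference of -0.78 ± 0.36 (edgeR, adjusted p = 0.258; with the block -0.85, adjusted p = 0.0459). EPCAM in SCC6 was at 183.1 and 297.6 against 98.6 and 229.6, with overlapping groups that separate by replicate number. Its log2 difference was -0.55 ± 0.48 (edgeR, adjusted p = 0.578; with the block -0.63, adjusted p = 0.0372). In the fit without the block, leaving out 1 SCC6 sample moved the difference of EPCAM between -1.29 and -0.07. The range was -1.32 to -0.40 for CLDN7 and -1.45 to -0.84 for OCLN. Positive cells at 15000 UMIs made up 90.8% and 95.7% against 72.6% and 90.0% for CLDN7, and 12.3% and 8.72% against 4.72% and 6.28% for OCLN.

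The regions before the starts of CDH2, OCLN and CLDN7 are shown because with the block CDH2 rose while OCLN and CLDN7 fell in SCC6, and both starts of CLDN7 are given. The 250 bases upstream of a RefSeq start were read for the 6 members listed in the RefSeq promoter table (GRCh38.p14), CDH2, CLDN1, CLDN4, CLDN7, OCLN and TJP1, with 12 starts in all. The E-box CACCTG, the motif through which the SNAI and ZEB repressors are known to bind DNA, was searched on both strands (CAGGTG on the other), and matches are in capitals. Sequences run 5' to 3' on the strand of the gene, from chr18:28177131-28177380 (minus strand) for CDH2, chr5:69492297-69492546 (plus) for OCLN, chr17:7263214-7263463 (minus) for the outer start of CLDN7 and chr17:7262479-7262728 (minus) for its inner start, which lies within the annotated gene.
CDH2: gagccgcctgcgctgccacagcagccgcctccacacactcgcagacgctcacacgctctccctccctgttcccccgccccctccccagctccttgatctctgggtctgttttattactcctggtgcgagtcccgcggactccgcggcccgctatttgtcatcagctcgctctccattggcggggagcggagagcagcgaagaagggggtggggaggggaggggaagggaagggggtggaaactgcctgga
OCLN: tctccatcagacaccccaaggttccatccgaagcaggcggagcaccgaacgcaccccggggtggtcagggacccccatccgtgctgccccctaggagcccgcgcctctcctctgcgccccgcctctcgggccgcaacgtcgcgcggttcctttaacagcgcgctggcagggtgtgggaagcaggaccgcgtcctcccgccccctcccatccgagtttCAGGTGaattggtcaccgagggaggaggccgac
CLDN7, outer start: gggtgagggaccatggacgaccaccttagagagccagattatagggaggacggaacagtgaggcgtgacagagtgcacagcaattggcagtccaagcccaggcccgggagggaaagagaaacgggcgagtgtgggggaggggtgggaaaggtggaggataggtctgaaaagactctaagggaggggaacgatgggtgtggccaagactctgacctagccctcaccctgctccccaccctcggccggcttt
CLDN7, inner start: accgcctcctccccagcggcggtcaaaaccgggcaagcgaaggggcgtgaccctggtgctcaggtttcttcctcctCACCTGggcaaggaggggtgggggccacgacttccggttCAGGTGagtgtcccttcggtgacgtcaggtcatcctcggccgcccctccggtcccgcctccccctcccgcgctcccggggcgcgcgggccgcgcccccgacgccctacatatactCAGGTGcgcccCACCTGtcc
The inner window of CLDN7 held 4 matches and its outer window none. Each of the 2 overlapping windows of OCLN held 1 match, and none was in either window of CDH2. CLDN1, which also fell in SCC6 with the block, had none, while TJP1, which was not called, had 1 in 1 of its 4 windows, and CLDN4 had none. Over the 12 windows of the members 4 held a match, beside 17.5% of the 35116 windows in the table. A match is a description of the letters and not a measured site.

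CLDN4, TJP1 and F11R did not pass in any comparison with cetuximab, with or without the block. CLDN4 was at 64.4 and 78.5 CPM in untreated and 86.0 and 90.5 in treated SCC1, at 199.6 and 579.7 against 150.3 and 357.5 in SCC6, and at 20.7 and 57.1 against 30.2 and 52.4 in SCC25. Its replicates were apart by up to 2.91-fold. F11R was at 43.1 and 49.1 against 56.7 and 55.3 in SCC1, at 34.6 and 32.8 against 42.5 and 42.5 in SCC6, and at 41.2 and 59.6 against 59.2 and 60.6 in SCC25. The log2 differences of F11R were 0.28 in SCC1, 0.33 in SCC6 and 0.25 in SCC25, and 0.29 ± 0.11 across lines (edgeR, adjusted p = 0.146). In SCC25 its groups overlapped, and the difference ran from 0.0053 to 0.54 when 1 sample was left out. EPCAM outside SCC6 was at 248.4 and 393.6 against 278.3 and 359.7 in SCC1 and at 85.0 and 193.2 against 99.2 and 158.5 in SCC25. CLDN7 there was at 361.3 and 470.7 against 385.1 and 427.4, and at 73.6 and 153.9 against 133.4 and 133.5, with overlap in both lines.

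Several members differed by replicate number. TJP1 was at 117.5 and 63.1 CPM in untreated and 113.0 and 68.6 in treated SCC1, at 105.6 and 52.0 against 107.6 and 59.0 in SCC6, and at 81.6 and 30.9 against 65.9 and 32.3 in SCC25. Replicate 1 exceeded replicate 2 by 1.65-fold to 2.64-fold in all 6 groups. The reverse held for EPCAM, where replicate 2 was 1.29-fold to 2.33-fold higher, for CLDN4 with 1.05-fold to 2.91-fold and for CLDN7 with 1.00-fold to 2.09-fold. Of the 7558 genes with a mean of 10 or more CPM, 40.1% had the same sign between replicates in all 6 groups. What the numbers stand for, such as a day or a sequencing run, is not given in the labels.

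Counted by groups that do not overlap, 7 of 10 members were higher with cetuximab and 0 lower in SCC1, beside 22.3% and 20.4% of genes tested. In SCC6, 2 were higher (CDH2 and F11R) and 3 lower (CLDN1, CLDN7 and OCLN), beside 25.5% and 21.4%. In SCC25, 3 were higher (CDH1, CDH3 and CLDN1) and 0 lower, beside 14.4% and 15.3%. The members of SCC1 with higher levels were CDH1, CDH2, CDH3, CLDN1, CLDN4, OCLN and F11R.

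Within samples, cells with VIM carried more CDH2. VIM-positive cells were called after thinning to 15000 UMIs, and levels were compared in the 8 SCC6 and SCC25 samples with at least 50 cells in both classes. SCC1, with 11 to 39 VIM-positive cells per sample, was not compared under this call. The level of CDH2 in VIM-positive over VIM-negative cells had a log2 ratio of 0.44 to 1.15, above 0 in 8 of 8 samples. For CDH1 the ratio was -0.29 to 0.35, with 4 samples on either side of 0. CLDN4 was lower in VIM-positive cells in 7 of 8 samples, with a median log2 ratio of -0.27, and CLDN7 in 7 of 8 with -0.03. CLDN1 was lower in 6 of 8, with -0.31 to -0.90 in SCC25 and -0.26 to 0.49 in SCC6. OCLN ranged from -0.70 to -0.26 in SCC25 and from -0.05 to 0.43 in SCC6. The medians of CDH3, EPCAM, TJP1 and F11R lay between 0.01 and 0.08. Of these, CDH3 was higher in VIM-positive cells in 7 of 8 samples. Its ratio was 0.08 to 0.35 in SCC6, and 0.0039 and 0.0329 in untreated SCC25. In untreated SCC6, for example, replicate 1 had 12.6 CDH2 CPM in 479 VIM-positive cells and 7.42 in 2173 VIM-negative cells, with median depths of 33426 and 32920 UMIs. Depths differed more in SCC25, where VIM-positive cells were deeper in all 4 samples, for example 46568.5 against 36218 UMIs in untreated replicate 2, and the part of depth in the ratios was not tested. With VIM called on all UMIs, 9 samples had at least 50 cells in both classes, and they were not the same set. Both untreated SCC1 samples entered, with 52 and 101 VIM-positive cells, and treated SCC6 replicate 2 dropped out, with 24 VIM-negative cells. CDH2 was higher in 9 of 9 with a median of 0.90, CLDN7 was lower in 5 of 9, and the median of EPCAM was 0.24. CDH1 was lower in 6 of 9 with a median of -0.35. It was at -0.42 and -0.58 in SCC1, while the SCC6 samples lay above 0, at 0.0202 and 0.0058 untreated and 0.181 treated. Cells of a sample are not replicates and no test was made.

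**Figure D5:**
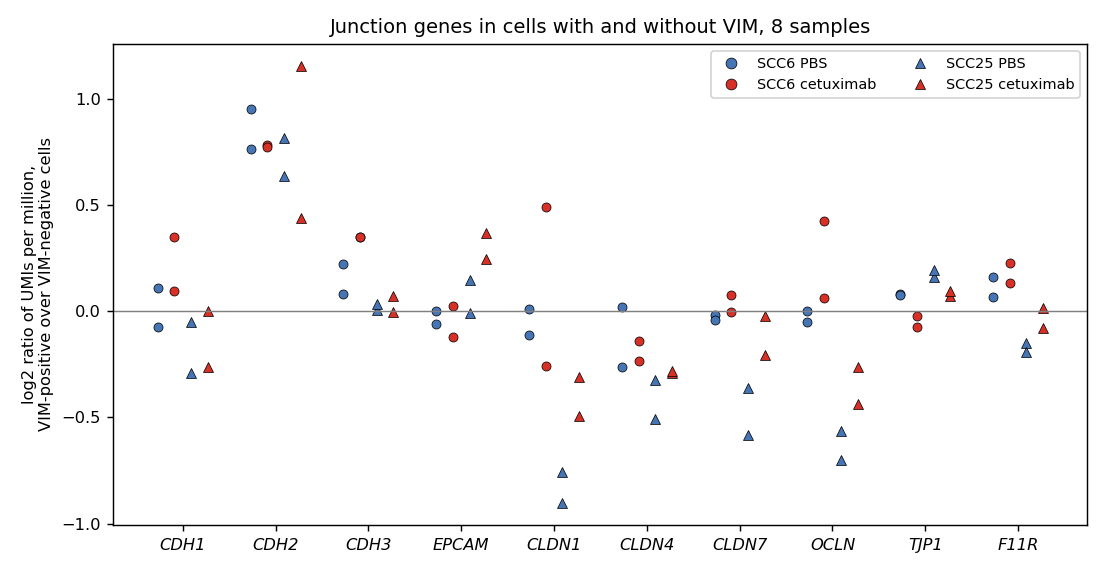
Log2 ratio of CPM in VIM-positive over VIM-negative cells (vertical axis) for each junction gene in the 4 SCC6 samples (circles) and 4 SCC25 samples (triangles), with PBS in blue and cetuximab in red. All CDH2 points lie above 0, from 0.44 to 1.15, and those of CDH1 lie on both sides.

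The other junction genes were read from lists of partners and regulators. Of 10 adherens junction partners (catenins, vinculin, afadin and nectins), 0 passed in any comparison of cetuximab with PBS. The smallest p-values across lines were those of NECTIN2, with a log2 difference of 0.52 (edgeR, adjusted p = 0.137), and NECTIN4, with -0.42 (adjusted p = 0.297). With the block NECTIN2 passed across lines, with 0.53 (edgeR, adjusted p = 0.0344), and in SCC6 CTNNB1 (beta-catenin) passed as higher and NECTIN1 as lower. Of 7 other cadherins 6 were tested and 0 passed, and only CDH13, a cadherin held by a lipid anchor, reached a mean of 10 CPM, with -0.34 across lines (adjusted p = 0.467). With the block CDH13 passed as lower in SCC1 and CDH16 as lower in SCC6. The levels of CDH13 separated the lines, with 15.9 and 16.5 CPM in untreated SCC1, 0.0119 and 0.0544 in SCC6, and 40.8 and 31.9 for SCC25.

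Of 18 other claudins 7 were tested. CLDN11 rose in SCC6, from 0.0239 and 0.109 to 0.927 and 0.531 CPM, with a log2 difference of 3.40 (edgeR, adjusted p = 0.0153), at a level where untreated replicate 1 held few molecules. This call was lost without replicate 1 of the treated or of the untreated samples (edgeR, adjusted p up to 0.131). CLDN9 rose across lines by 0.75 (edgeR, adjusted p = 0.0418), with 6.13 and 5.44 against 14.3 and 10.8 in SCC1, 7.16 and 13.5 against 14.7 and 19.4 in SCC6 and 6.32 and 5.48 against 8.34 and 7.42 in SCC25. Its call held in 3 of 12 omissions of 1 sample, with adjusted p-values up to 0.115, and with the block CLDN9 was also called as higher in SCC1 and SCC6 and CLDN3 as lower in SCC6. Of 18 other tight junction and polarity genes 16 were tested and 0 passed without the block. With it, 5 of the 16 were called in SCC6, beside 20.1% of all genes, with PATJ as higher and TJP3, PARD6B, CRB3 and CGN as lower. In SCC1, CGNL1 was called as higher, beside 2.46% of all genes. TJP3 (ZO-3), for example, went from 13.8 and 10.4 to 3.14 and 3.14 CPM in SCC6. Without the block PATJ and PRKCI, parts of polarity complexes, had differences of 0.27 (adjusted p = 0.259) and 0.21 (adjusted p = 0.320) across lines.

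Of the 6 repressors of CDH1 (SNAI1, SNAI2, ZEB1, ZEB2, TWIST1 and TWIST2), 0 passed with cetuximab. SNAI2, the one with a mean above 10, was at 59.5 and 72.8 CPM in untreated and 65.8 and 75.6 in treated SCC1, 68.7 and 29.6 against 56.6 and 59.3 in SCC6, and 59.3 and 67.0 against 74.2 and 80.1 in SCC25, a log2 difference of 0.21 across lines (edgeR, adjusted p = 0.534). ZEB1 was at most 0.753 CPM, and TWIST2 was at most 0.014 outside SCC25, where it was at 14.9 to 24.0. Among 10 epithelial regulators, 2 fell in SCC6 and 0 rose, beside 3.81% of all genes called in either direction. ELF3, an ETS factor of epithelia, went from 257.8 and 158.7 to 41.7 and 45.5, a log2 difference of -2.26 (edgeR, adjusted p = 0.0463), and KLF5 from 94.0 and 57.8 to 29.7 and 28.8, a log2 difference of -1.38 (adjusted p = 0.0474). The ELF3 call was lost whichever SCC6 sample was left out (edgeR, adjusted p up to 0.291), and the KLF5 call without either treated sample or without untreated replicate 1 (adjusted p up to 0.318). With the block 4 of the 10 fell in SCC6, beside 10.1% of all genes, and ELF3 was also called as lower in SCC25 and across lines. The median log2 difference of the list was -0.996 in SCC6, beside 0 over all genes.

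The genes with levels most like those of CDH2 over the 12 samples, among 7557 genes with a mean of 10 or more CPM, were ARHGEF17 (Pearson r of log2 levels 0.98), NCS1 (0.97), FBLIM1 (0.96), COL5A1 (0.95) and CMTM3 (0.95). For CDH1 they were ADAM9 (0.88), SLC39A14 (0.88), NABP1 (0.88), GATA6 (0.87) and HSPG2 (0.87). The 12 samples come from 3 lines and share the replicate pattern, so these values describe likeness only.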

How the data were processed

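The members and gene lists were chosen with earlier results of these data known. The authors deposited raw UMI counts per gene and cell, 1 table per line, made with Cell Ranger on GRCh38 according to the submitters' processing notes (its version is not given in the sources used here), and each cell name carries its line, treatment and replicate. No cell lacked a sample and 0 columns were left unused. The 24 symbols found on several lines were summed, no cell was removed and no doublet caller was run. UMIs were summed per sample, since cells are not replicates, and tested with edgeR 4.0.16 in R 4.3.3 (TMM, filterByExpr, 1 mean per group, 6 residual degrees of freedom, adjusted p under 0.05), with line and treatment as terms for the effect across lines. The scripts were tested on simulated data. Whether replicates were separate cultures is not clear, so p-values may cover only technical spread. Replicate numbers were checked by the correlation of deviations from group means of the PBS and cetuximab samples (0.70 in SCC1, 0.65 in SCC6, 0.72 in SCC25, over 7558 genes), and paired the samples. All members were named. Of the other lists, genes called in a comparison with cetuximab were named, or the 2 with the smallest p across lines at a mean CPM of 10 or more where fewer than 2 were called. Alternatives were DESeq2 1.42.0, its size factors, no filter, the block, samples of the comparison only, other cell filters, other thinning and leaving out each sample.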

Additional observations from a re-analysis of the deposited data

Results flagged for a closer look

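For CLDN1 and OCLN, treated and untreated samples did not overlap in some lines, with opposite signs between lines. Over all genes tested, groups did not overlap for 22.3% as higher in SCC1, 14.4% as higher in SCC25 and 21.4% as lower in SCC6. The share of genes with opposite signs was not counted. The log2 difference of cetuximab over PBS for CLDN1 was 1.40 in SCC1 and 1.02 in SCC25 and -1.54 in SCC6, where every treated sample was below every untreated one. For OCLN it was 0.22 in SCC1 and -1.17 in SCC6. The OCLN groups of SCC1 lay close together, at 12.7 and 14.06 CPM untreated and 16.71 and 14.36 treated. The test of the difference itself, the interaction of line and cetuximab over all 3 lines, gave adjusted p-values of 0.432 for CLDN1 and 0.581 for OCLN (edgeR), and 0.0597 for CLDN1 with the replicate block. DESeq2 called CLDN1 (adjusted p = 0.0176). Other pairs of lines were not tested separately.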

How the results depend on the processing

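With 2 samples per group and 6 residual degrees of freedom, a member that did not pass is not shown to be the same. The fit with the replicate block had fewer residual degrees of freedom than this, since it added a term for each line. Of the 70 fold changes of the members, 20 turned sign in some alternative, none of them a call. With the replicate block, members called went to 1 in SCC1, 5 in SCC6, 1 in SCC25, 9 between untreated SCC25 and SCC1 and 8 between untreated SCC25 and SCC6, and the block changed no other count of called members by more than 1.5 times. The cadherin ratio of 1.09 and the double-positive share of 12.8 points cannot change with the block. Pairing leaves these mean differences as they are, so the block is no check of their size. DESeq2 called 3 members in SCC6, 1 in the interaction and 7 between untreated SCC25 and SCC1, beside 1671, 276 and 7701 of 17897 genes. Without the filter, 1 was called in SCC1, 3 in SCC6 and 1 in the interaction, beside 243, 1233 and 248 of 25899 genes. Fits of the samples of a comparison only called 1 in SCC6, beside 265 of 15925 genes. Between untreated SCC6 and SCC1 such fits called 2 members, beside 6587 of 16175 genes. The ratio from mean log2 levels over cells was 0.88. Between untreated SCC6 and each of the other untreated lines, leaving out any 1 sample lowered the calls over all genes. A lower number of members called in these omissions cannot be read as particular to the members. When 1 sample was left out, members called ranged from 0 to 1 across lines, from 0 to 2 between untreated SCC6 and SCC1 and from 3 to 4 between untreated SCC25 and SCC6, the ratio from 0.88 to 1.30, the double-positive share from 9.21 to 16.4 points and the difference of CDH1 in SCC6 from -0.39 to 0.34. Over all genes, calls without 1 sample ranged across lines from 202 to 596, beside 656 with all samples.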
